A study of Mus musculus with 22 samples.

Results

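The cytosolic ribosomal protein genes encode the protein part of the ribosomes that translate nuclear-encoded mRNAs. They were followed here in RNA-seq libraries of mouse memory CD4+ T cells. Members were chosen by name: gene symbols made of Rpl or Rps and a number, with at most one further letter and digit, plus Rpsa, Rplp0, Rplp1 and Rplp2. Names of processed pseudogenes ending in -ps and the Rps6k kinases, which phosphorylate a ribosomal protein but are not part of the ribosome, were left out. The rule found 89 genes among 55291 gene names, 53 of the large subunit and 36 of the small subunit. RefSeq lists 84 of them as protein-coding and 5 as pseudogenes (Rps4l, Rps12l1, Rpl6l, Rps3a2 and Rps3a3). A few proteins of the ribosome carry other names and fall outside the rule, among them Fau and Rack1, which are described apart.

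A cytosolic ribosome holds one copy of nearly every one of these proteins, with the acidic stalk proteins P1 and P2 present in more than one copy. Cells keep their supply balanced mainly after transcription: most of the mRNAs begin with a 5′ terminal oligopyrimidine tract (TOP), a C followed by further pyrimidines, through which mTOR signalling and the RNA-binding protein LARP1 set their translation and stability. Resting T cells hold many of these mRNAs back from polysomes and load them when the cells are activated. Ribosomal protein mRNAs are abundant in every cell. The genome holds many processed copies of them, which makes reads hard to assign.

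The study labels 8 RNA libraries in 4 groups of 2, which cross where the cells were recovered (tissue or circulation) with the population they came from (ex-TRM or ex-Tcirc). TRM are memory cells that stay resident in a tissue, and Tcirc are memory cells that recirculate. Donor cells were effector Th2 cells, the helper subset known for type 2 cytokines, taken from OT-II creERT2 or DO11.10 T cell receptor transgenic mice, whose T cells recognise ovalbumin. They were injected into ovalbumin-sensitised mice, either C57BL/6 (Ly5.2) or, as athymic hosts that lack T cells of their own, BALB/c-nu/nu. Tamoxifen, which activates creERT2, marked cells in the experiment sorted at day 49, and in the other experiment, analysed at day 71, lung cells of DO11.10 origin were transferred again into untreated BALB/c-nu/nu mice and rechallenged with ovalbumin. All RNA libraries carry the labels lung, female, 6 to 10 weeks old and host strain Balb/c, although circulating cells are described as sorted from blood. Neither the experiment each library belongs to nor the promoter that drives creERT2 is stated. Nothing says that the replicates were separate animals, so p-values here measure only a spread between libraries that could be technical.

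Members were compared first by the sequence around their transcription starts, since the TOP tract is the feature that ties them together in cells. RefSeq promoter entries (GRCm38.p6, the build also called mm10) were matched for 64 of the 89 members. The 3 large and 3 small subunit members with the highest mean level among those with an entry are printed here, 40 bases before to 20 bases from the annotated start. Capitals mark a run of at least 6 C or T that begins with C within 10 bases of the start. Rplp1 and Rpl8 also stand among the most abundant members.
Rplp2 (chr7:141447611-141447670, plus strand): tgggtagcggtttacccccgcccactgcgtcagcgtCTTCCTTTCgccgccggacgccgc
Rpl34 (chr3:130730379-130730438, minus strand): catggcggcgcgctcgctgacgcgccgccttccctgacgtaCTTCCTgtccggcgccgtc
Rpl13a (chr7:45128726-45128785, minus strand): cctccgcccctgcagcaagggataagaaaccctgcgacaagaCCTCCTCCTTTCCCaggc
Rpsa (chr9:120127726-120127785, plus strand): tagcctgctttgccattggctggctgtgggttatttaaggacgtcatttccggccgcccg
Rps9 (chr7:3704001-3704060, plus strand): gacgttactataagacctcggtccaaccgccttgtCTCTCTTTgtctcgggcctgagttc
Rps21 (chr2:180257339-180257398, plus strand): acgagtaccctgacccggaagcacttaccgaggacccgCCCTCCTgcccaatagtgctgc

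Such a run stood near the start of 32 of the 64 members (50.0%), 19 of 40 large and 13 of 24 small subunit genes, against 3432 of 17428 other protein-coding genes (19.7%). On the opposite strand the run was found in 6 members (9.38%) and in 23.6% of the other genes. The letters CCGGAAG, the core of the sites bound by ETS factors, occurred on either strand of the 300-base windows of 26 members (40.6%) and of 12.8% of the other protein-coding genes. In this count a gene with several annotated starts counted once if any of its windows held the motif. These matches describe letters near annotated starts and were not measured in the T cells, and the annotated start can lie a few bases from the start in use.

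The libraries differed widely in how much of the transcriptome they listed. Tissue libraries held 30488 to 37894 names above 0, circulating ex-Tcirc replicates 1 and 2 held 12785 and 7042, and the circulating ex-TRM pair held 917 and 29688. Levels are FPKM, fragments scaled by gene length and library size, and total read numbers are not known. Circulating ex-TRM replicate 1 listed 85 of the 89 members at 0 and was treated as missing, so that circulating ex-TRM rests on 1 library. Markers of T cells (8 genes) summed to 1231 to 1719 FPKM in tissue and to 1286 to 1791 in the 3 circulating libraries used, while Cd8a and Cd8b1 together stayed at or below 2.99. Markers of other lung cells stood apart in circulating ex-Tcirc replicate 1. There 7 epithelial markers summed to 623 FPKM (at most 93.3 in tissue) and 9 myeloid markers to 689 (42.7 to 139). The 5 dendritic cell markers summed to 403 (20.5 to 114). Only 4, 4 and 3 of these markers, in that order, were above 0, and single genes made up most of each sum. Sftpc alone had 421 FPKM, Lyz2 646 and Cd74 265. At 0 were Sftpb, Epcam, Krt8, Itgam, Adgre1, Tyrobp, S100a8, S100a9, Flt3 and Itgax. The 6 B cell markers summed to 19.9 to 392 FPKM in tissue, highest in ex-Tcirc replicate 1, and to 255 in this library. In the other replicate of that group the epithelial, myeloid and dendritic sums were 0, 300.4 and 7.62 FPKM, and for circulating ex-TRM replicate 2 they were 34.0, 61.0 and 56.7. The part these cells have in the values below was not tested. In bulk libraries, fewer cells of a type and less RNA per cell cannot be told apart.

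In tissue the members formed a stable profile. Of the 73 members with a tissue mean of at least 20 FPKM, 66 differed by less than 2-fold between the highest and the lowest of the 4 tissue libraries, with a median ratio of 1.34 over the members above 0 in each. The median member of a tissue library had 69.0 and 88.4 FPKM in the ex-Tcirc pair and 83.6 and 89.8 in the ex-TRM pair. Summed over all members the tissue libraries held 9474, 10101.8, 9682 and 10061.6 FPKM, which was 5.13% to 5.99% of the FPKM of protein-coding names. Between any pair of tissue libraries, the median absolute log2 difference of a member was 0.12 to 0.28. The middle of the distribution was alike for both subunits, with tissue medians of 61.8 to 89.8 FPKM for large and 79.9 to 92.4 for small subunit genes.

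**Figure D1:**
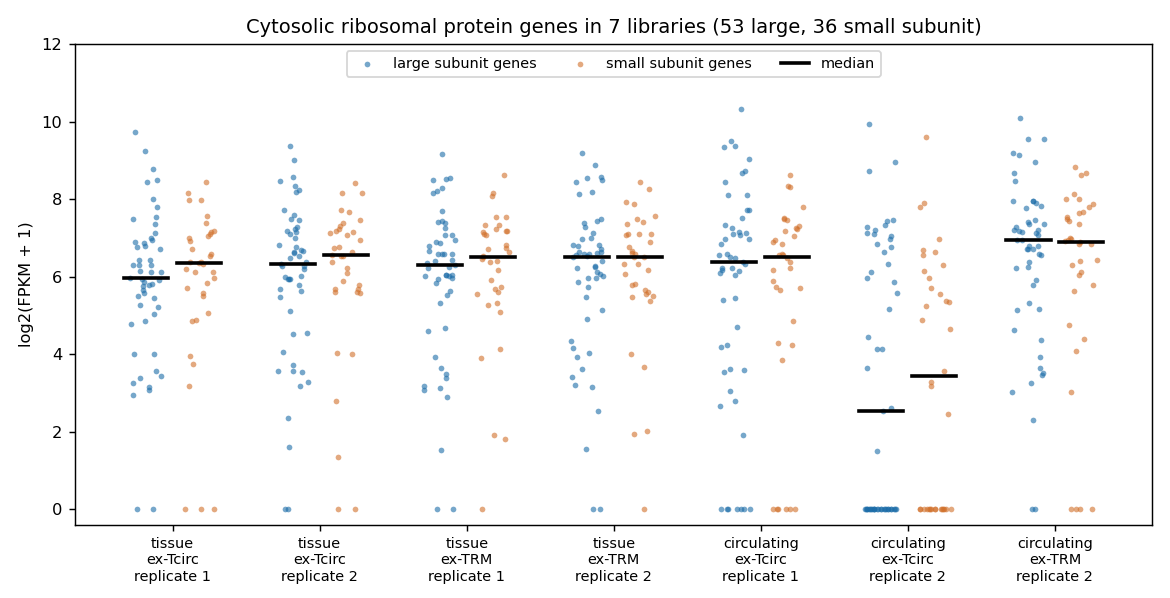
Level of each of the 89 members, as log2(FPKM + 1), in the 7 libraries used; blue points are 53 large and orange points 36 small subunit genes, and black bars are medians. The 4 tissue libraries look alike, circulating ex-TRM replicate 2 lies higher, and 40 members sit at 0 in circulating ex-Tcirc replicate 2.

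The stalk of the large subunit, which recruits elongation factors, held the pair of most abundant members. Rplp1, which encodes the acidic protein P1, had 847 and 661 FPKM for ex-Tcirc and 577 and 582 for ex-TRM from tissue, then 1281 and 0 for ex-Tcirc and 1083 for ex-TRM from circulation. It was the highest member in all 4 tissue libraries and in 2 of the 3 circulating ones, and was listed at 0 in the third. Rplp2, which encodes its partner P2, was at 439, 300.2, 356 and 472 FPKM over the tissue libraries and at 726, 974 and 745 in circulation. Rplp0, the protein that anchors P1 and P2 to the ribosome, was at 109, 97.8, 95.6 and 104 FPKM over the tissue libraries and at 346, 137 and 248 in circulation. For Rplp2 and Rplp0 every circulating library lay above every tissue library.

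Other abundant large subunit genes were Rpl34, Rpl8 and Rpl13a, with means over the 7 libraries of 409, 397 and 374 FPKM. Rpl8, a core protein near the peptidyl transferase centre, ranged from 354 to 370.3 FPKM over the tissue libraries and reached 422, 422 and 493 in circulation. Rpl13a, known for silencing inflammatory transcripts when released from the ribosome, had 608 and 509.6 FPKM in the tissue libraries of ex-Tcirc origin and 312 and 372 in those of ex-TRM origin. In circulation it was at 73.9 and 0 in ex-Tcirc and at 744 in ex-TRM, so that the 3 libraries lay on both sides of tissue. Rpl5 and Rpl11, which with 5S ribosomal RNA restrain Mdm2 and so stabilise p53, differed in steadiness. Rpl5 was at 122, 154, 167 and 166 FPKM over the tissue libraries and at 183, 113 and 169.9 in circulation, while Rpl11 was at 53.8, 140.5, 100.3 and 97.2 in tissue and at 66.9, 0 and 145 in circulation. Rpl3, another core protein near the peptidyl transferase centre, ranged from 58.7 to 74.95 FPKM over tissue and reached 92.4, 79.0 and 94.96 in circulation, with no overlap. Rpl10, which joins the large subunit at a late step, ranged from 77.5 to 115 FPKM over tissue and was at 151, 57.4 and 121 in circulation. Rpl7 ranged from 153 to 177 FPKM over tissue and was at 94.8, 0 and 238 in circulation.

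Of the small subunit genes, Rpsa was the most abundant by its mean over the 7 libraries. Rpsa, which doubles as a laminin receptor, was at 345, 338, 393 and 345 FPKM over the tissue libraries and at 316, 239 and 450.0 in circulation. Rps9, needed for accurate decoding, ranged from 249.99 to 304 FPKM over tissue and was at 394, 0 and 389 in circulation. Rps21 ranged from 240.02 to 283 FPKM over tissue and was at 117, 24.0 and 408 in circulation. Rps6, the substrate of the S6 kinases downstream of mTOR, was at 143, 149, 133 and 189 FPKM over the tissue libraries and at 320.1, 124 and 255 in circulation. Rps27 ranged from 131 to 200.3 FPKM over tissue and was at 177, 61.3 and 234 in circulation, and Rps12 was at 27.7 to 50.2 in tissue and at 51.0, 39.4 and 48.2 in circulation. In each of these except Rps12 the ex-TRM library was above every tissue library, while circulating ex-Tcirc replicate 2 was below every one. Rps19 went the other way in that library: it was at 54.2 to 82.2 FPKM over the tissue libraries, and in circulation at 92.6 and 770.4 in the ex-Tcirc pair and at 77.5 in the ex-TRM library. The value of 770.4 FPKM was picked out after it had been seen.

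Several ribosomal proteins have a second gene that is used in particular tissues, such as testis or striated muscle, or that can replace the main gene. In each pair named here the main gene was above its relative in every tissue library. Rpl22, an RNA-binding protein needed for normal alpha beta T cell development, was at 42.8, 136, 133 and 139 FPKM in tissue, and its paralogue Rpl22l1, which it represses, at 9.76 to 11.2. In circulation Rpl22 was at 79.6, 0 and 244 FPKM and Rpl22l1 at 10.7, 68.4 and 11.4, so the order of the pair turned in circulating ex-Tcirc replicate 2. Rps27l, a p53 target, was listed above 0 only in the tissue ex-TRM libraries, at 2.76 and 3.02 FPKM. Rpl39l, the testis form of Rpl39, and Rpl3l, the form of Rpl3 in striated muscle, were listed at 0 in all 8 libraries, whereas Rpl39 ranged from 19.2 to 31.6 FPKM over tissue and was at 17.1, 0 and 34.9 in circulation. Rpl10l, an autosomal copy of the X-linked Rpl10 used in male germ cells, was at 10.7 FPKM in tissue ex-Tcirc replicate 1, at 1.89 to 2.01 in the other 3 tissue libraries and at 2.74, 0 and 7.13 in circulation. Rps4l, listed by RefSeq as a pseudogene, was likewise at 12.3 FPKM in tissue ex-Tcirc replicate 1 and at 1.56 to 2.81 in the other tissue libraries, beside 80.0 to 98.5 for the X-linked Rps4x. Rpl7l1 ranged from 7.35 to 8.47 FPKM over tissue and was at 0, 0 and 10.4 in circulation. Rps12l1, another pseudogene, was the only member at 0 in all tissue libraries and above 0 in circulation, at 18.4 and 8.77 FPKM in circulating ex-Tcirc. At the low end of the family also stood Rpl29, at 4.15 to 9.36 FPKM over the tissue libraries and at 0, 0 and 14.3 in circulation. Copies of one gene can share reads, so these low values are uncertain.

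The first tested comparison set tissue ex-TRM against tissue ex-Tcirc, that is, cells recovered from the same place that derived from resident or from circulating memory cells. No ribosomal protein gene passed. Over the 4 tissue libraries limma tested 2818 gene names on log2(FPKM + 1) and called 0 (0% of all tested at an adjusted p under 0.05), with 215 names and 1 member, Rpl13a, at an unadjusted p under 0.05. The median log2 difference of ex-TRM minus ex-Tcirc was 0.06 over the 73 members and 0.20 over all names, and 45 members were positive and 28 negative. Rpl13a had the smallest p, at -0.71 ± 0.24 on the log2 scale (SE; limma adjusted p = 0.488), both ex-TRM libraries lying below both ex-Tcirc libraries. On that side Rps20, Rps29 and Rplp1 had log2 differences of -0.46, -0.29 and -0.37 (limma adjusted p of 0.500 to 0.510). On the other side stood Rps24, Rpl31, Rpl10a, Rpl23a and Rps27a, with log2 differences of 0.41 to 1.37 and a limma adjusted p = 0.488 for each. Without tissue ex-Tcirc replicate 2, which leaves 1 library in its group, limma called 7 of 73 members, beside 15.1% of all names tested in that fit.

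Most members that varied in tissue were low in 1 library, and several had pseudogene names that were high there. Of the 7 members with at least a 2-fold range in tissue or a 0 there, 6 were lowest in tissue ex-Tcirc replicate 1. Rps23, which lines the decoding centre, was listed at 0, 50.7, 47.5 and 95.8 FPKM over the tissue libraries, ex-Tcirc first, and at 0 in all 3 circulating ones. Its 2 pseudogene names together had 308, 279, 269 and 196 FPKM over the same tissue libraries and 514, 378 and 452 in circulation. The tissue library with the lowest value of the gene thus had the highest value of its copies, and the one with the highest had the lowest. Rpl23a, a protein at the exit of the peptide tunnel, was at 68.1, 211, 207 and 348 FPKM in tissue and its 14 pseudogene names together at 181, 138, 120.0 and 88.4. Adding the copies brought the ratio of highest to lowest tissue library from 5.11 to 1.75 for Rpl23a, from 5.23 to 2.43 for Rps24, from 7.45 to 1.78 for Rps27a and from 2.31 to 1.65 for Rpl31. For Rps23 it came to 1.13, whereas for Rpl11, which has no such name, it stayed at 2.61. A large sum added to every library lowers such a ratio in any case, so the drop alone does not show that reads were exchanged. The copies of Rps24 were at 86.5, 113, 107 and 85.6 FPKM over the tissue libraries and those of Rps27a at 51.4, 43.6, 43.7 and 44.0. For neither gene were they highest in the library where the gene was lowest. Rps27a, whose product is made as a fusion with ubiquitin, had 32.6, 5.95, 33.2 and 44.4 FPKM over the tissue libraries and 0 in all 3 circulating ones, there beside 37.2 to 140.3 FPKM for its copies. Whether reads of these genes were given to their copies was not tested.

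The next comparison set tissue against circulation within cells of ex-TRM origin, and here the ribosomal protein genes stood higher in circulation almost as a family. In circulating ex-TRM replicate 2 the median member was at 118.99 FPKM and the members together at 14568, 7.31% of the FPKM of protein-coding names. Of the 73 members with a tissue mean of at least 20 FPKM, 62 (84.9%) were above every tissue library, 37 of 42 large and 25 of 31 small subunit genes, while 3 were below every one. The background over all 2818 names of that level was 37.6%, and 697 of 1903 other protein-coding names (36.6%) were above every tissue library. The median ratio to the tissue mean was 1.47 over the members, 1.59 for large and 1.32 for small subunit genes, against 1.04 for other protein-coding names. With factors from median ratios between libraries, which lowered this library relative to the others, the count was 39 of 73 beside 17.7% of all names, and the median ratios were 1.21 for the members and 0.85 for other protein-coding names. Because this is 1 library, its count has no replicate check.

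**Figure D2:**
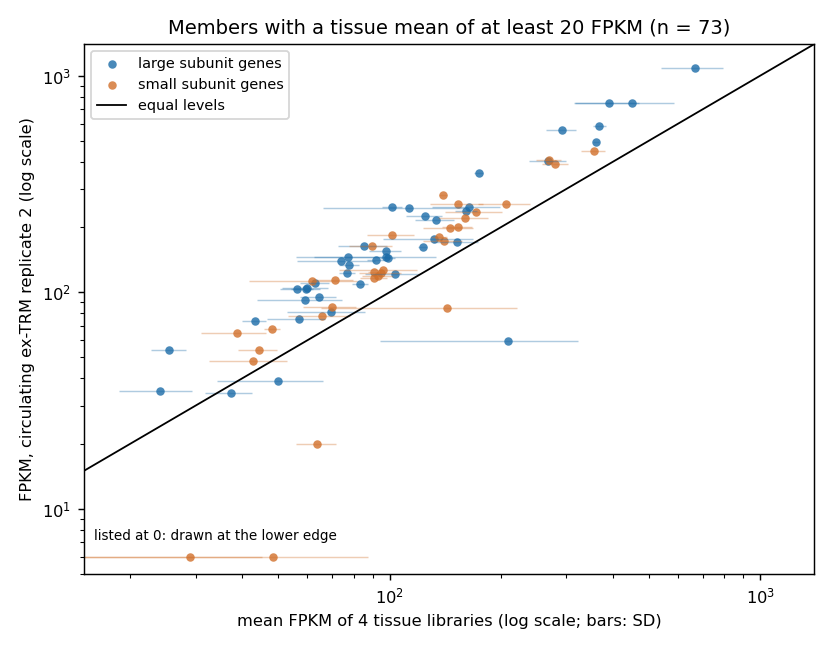
FPKM of 73 members in circulating ex-TRM replicate 2 (vertical) against their mean over the 4 tissue libraries (horizontal, bars are SD), both on log scales; the line marks equal levels. Most points of both subunits lie above the line, and Rps23, Rps27a, Rps29, Rpl23a and Rps24 lie far below it.

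The excess was spread over many members, was moderate in size, and passed the test for none of them. Among these 73, ratios to the tissue mean were 2.44 for Rplp0, 2.16 for Rpl22, 2.13 for Rpl32l and 2.04 for Rpl12, examples of high ratios. The 11 members that were not above every tissue library were Rpl23a, Rpl31, Rpl6, Rpl7a, Rpl9, Rps12, Rps19, Rps23, Rps24, Rps27a and Rps29. Within ex-TRM limma called 0 of 2656 names (0%), with 87 names and 3 members at an unadjusted p under 0.05, and the single circulating library was assumed to vary like the other groups. The log2 difference of tissue minus circulating was negative for 66 of 72 members, with a median of -0.56, and for 54.6% of all names, with a median of -0.06. Rpl41, which encodes a very short and basic protein, had the smallest p, with -0.98 ± 0.27 (SE; limma adjusted p = 1). It was at 117 and 111 FPKM in tissue ex-TRM and at 226 in circulating ex-TRM replicate 2. Rpl34, Rpl35, Rpl27a and Rplp2 followed, with log2 differences of -0.93, -0.81, -0.77 and -0.86 (limma adjusted p = 1 for each). The smallest p on the tissue side were those of Rps29, Rps23, Rpl23a, Rpl7a and Rps24, with log2 differences of 1.47, 6.10, 2.16, 0.19 and 1.19 (limma adjusted p = 1 for each). Of these, Rps23 was listed at 0 in the circulating library, so that its difference is set by the pseudocount.

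Within cells of ex-Tcirc origin the members split between the pair of circulating libraries, and the 5 that passed the test were genes at 0 in both. In circulating ex-Tcirc replicate 1, 39 of 73 members (53.4%; background 31.7%) were above every tissue library and 19 below (background 46.1%). In replicate 2, 13 (17.8%; background 17.6%) were above and 53 (72.6%; background 71.7%) below, so that in this library the family followed the other names. The median ratio to the tissue mean was 1.16 and 0.35 in the pair, against 0.84 and 0 for other protein-coding names. limma called 5 of 72 members within ex-Tcirc, all higher in tissue, where it called 9.11% of all 2656 names (8.36% higher and 0.753% lower), so the members were called about as often as other names. The 5 were Rps15 (limma adjusted p = 0.00357) and Rpl26, Rpl37a, Rps29 and Rpl27 (limma adjusted p = 0.00614 for each). No fold can be given against libraries at 0. Their spread came from the tissue libraries alone, and leaving out any 1 of the 4 tissue libraries ended all 5 calls. On the circulating side within ex-Tcirc the smallest p belonged to Rpl35, Rpl34, Rplp2, Rpl23 and Rplp0, with log2 differences of -1.41, -0.97, -1.21, -1.07 and -1.07, and none passed (limma adjusted p of 0.0515 to 0.318).

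The 5 genes shared the zeros in the circulating ex-Tcirc pair, by which they were called, but differed in the circulating ex-TRM library. Rps15, a protein of the small subunit head, had 252, 209, 185 and 179 FPKM over the tissue libraries, 0 in the circulating ex-Tcirc pair and 255 in the circulating ex-TRM library. It was thus listed at 0 in the circulating ex-Tcirc pair and about as high in the circulating ex-TRM library as in the highest tissue library. Rpl26, which binds the p53 mRNA after DNA damage, ranged from 78.2 to 88.4 FPKM over tissue and reached 109 in the circulating ex-TRM library. For Rpl27 the tissue range was 52.1 to 64.9 FPKM and the circulating ex-TRM value 104, and for Rpl37a they were 73.1 to 84.7 and 134. Rps29, a zinc-binding protein of the small subunit, lay below tissue in the circulating ex-TRM library. It had 72.7, 67.5, 59.7 and 54.9 FPKM over the tissue libraries and 20.01 in the circulating ex-TRM one. Pseudogene names of some of these genes were listed where the genes were not. The 2 copies of Rps15 together had 74.1 to 93.2 FPKM over tissue and 176 and 152 in the circulating ex-Tcirc pair, and the 3 of Rpl27 had 63.7 to 81.0 and 242 and 12.2. The single copies of Rps29 and Rpl37a were at or below 4.19 FPKM in tissue and in the circulating ex-Tcirc pair at 0 and 0 for Rps29 and at 0 and 25.2 for Rpl37a.

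Averaged over both origins, the same 5 members were called higher in tissue and 0 lower, among 72 tested. limma called 7.34% of all 2656 names (6.55% higher and 0.791% lower), so that the members' share was near the background. The limma adjusted p was 0.0239 for Rps29, Rps15, Rpl26 and Rpl37a and 0.0262 for Rpl27, and here too the calls ended without any 1 of the 4 tissue libraries. On the circulating side no member passed. Rpl35, at 60.4, 48.5, 55.9 and 60.9 FPKM over the tissue libraries and at 137, 154 and 103 in circulation, came nearest, at -1.11 ± 0.21 on the log2 scale (SE; limma adjusted p = 0.0594). Rpl34, at 257, 323, 297 and 288 FPKM over the tissue libraries and at 648, 492 and 559.7 in circulation, had -0.95 ± 0.20 (SE; limma adjusted p = 0.0836). For both genes every circulating library was above every tissue library. Rplp2 had -1.03 ± 0.26 (SE; limma adjusted p = 0.129), Rplp0 -1.19 ± 0.40 (SE; limma adjusted p = 0.235) and Rpl41 -0.48 ± 0.17 (SE; limma adjusted p = 0.277). Without circulating ex-Tcirc replicate 1 limma called 45 of 73 members, beside 69.5% of all names tested in that fit, and without replicate 2 it called 28 of 72, beside 42.2%, a share of members below or near that of all names.

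**Figure D3:**
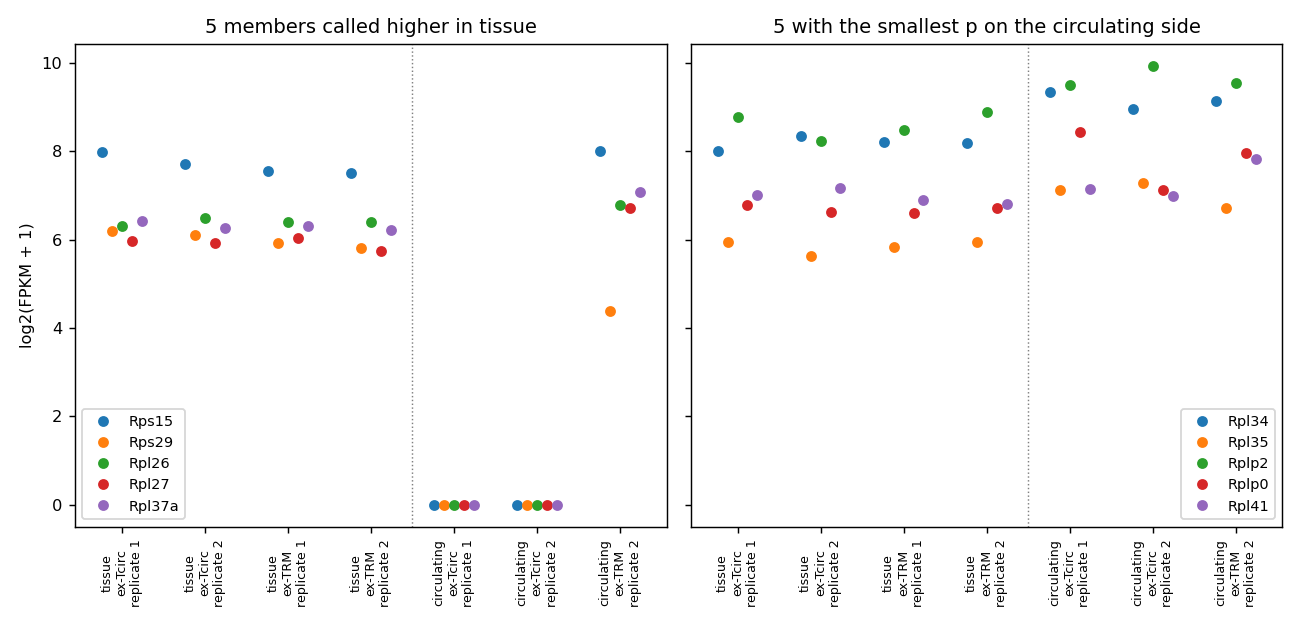
Levels, as log2(FPKM + 1), of 10 members in the 7 libraries, tissue to the left of the dotted line and circulation to the right; colours stand for genes. In the left panel the 5 called members lie at 0 in the circulating ex-Tcirc pair. In the circulating ex-TRM library Rpl26, Rpl27 and Rpl37a lie above tissue, Rps15 about level with the highest tissue library, and Rps29 below tissue. In the right panel Rpl34, Rpl35, Rplp2 and Rplp0 lie above tissue in all 3 circulating libraries.

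In all 3 circulating libraries 9 of the 73 members were above every tissue library (8.06% of all names of that level), namely Rpl3, Rpl8, Rpl14, Rpl23, Rpl34, Rpl35, Rplp0, Rplp2 and the Rps3a copy Rps3a2. Of these, 8 belong to the large subunit, as do 42 of the 73 members counted, and no difference between subunits was tested. Rpl14 ranged from 119 to 126 FPKM over tissue and reached 136, 173 and 163 in circulation. Rpl23, with 84.4 to 96.0 FPKM over tissue and 273, 132 and 141 in circulation, stood further apart. The count was 35 without circulating ex-Tcirc replicate 2 (22.3% of all names in the same setting) and 5 with factors from median ratios (4.65%). It was 15 with TPM (10.9%), 16 when scaled to other protein-coding names (11.6%) and 17 with pseudogene names added (8.34%). Rps27a and Rps29 were below every tissue library in all 3 (15.5% of all names of that level).

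The test of whether the location difference depended on origin called 1 member, Rps15 (limma adjusted p = 0.0323), among 72 tested. This was 1 of 4 names called among 2656 (0.151%). Rpl37a, Rpl26, Rpl27 and Rps29 followed at a limma adjusted p = 0.0509 each, all with lower values of the interaction, that is, a tissue excess within ex-Tcirc that was absent or smaller within ex-TRM. On the other side the smallest p belonged to Rpl35, Rps19, Rps23, Rpl23 and Rplp2, with interactions of 0.60, 1.85, 3.25, 0.48 and 0.35 on the log2 scale (limma adjusted p = 0.841 for each). The median interaction was -1.03 over the members and -1.04 over all names. The spread of Rps15 came from the tissue libraries alone. Its call ended without any 1 of the tissue libraries and with factors from median ratios.

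When FPKM were summed by name, large subunit genes outweighed small ones more in the circulating libraries than in tissue, a difference that was not tested. The ratio of large to small subunit FPKM was 1.72, 1.63, 1.54 and 1.67 in the tissue libraries (1.64 ± 0.07, SD, n = 4) and 2.27, 1.84 and 1.93 in the circulating ones (2.01 ± 0.23, SD, n = 3), with no overlap. The stalk genes carried much of this gap. Rplp0, Rplp1 and Rplp2 together held 1029 to 1395 FPKM per tissue library and 2353, 1111 and 2076 in circulation. Without them the ratio was 1.27 to 1.36 in tissue and 1.64, 1.33 and 1.51 in circulation, so that the ranges overlapped. With each member's pseudogene names added, the ratio was 1.39 to 1.49 in tissue and 1.64, 1.36 and 1.54 in circulation, again overlapping. Set against the FPKM of protein-coding names, the members stood at 7.66% and 6.09% in the circulating ex-Tcirc pair and 7.31% in the circulating ex-TRM library. Each was above the highest tissue library at 5.99%, though 6.09% only narrowly. These values count the 5 members listed as pseudogenes, which the protein-coding total leaves out. As a share of the FPKM of all names the ranges overlapped, with 0.652% in circulating ex-Tcirc replicate 2 and 0.728% in tissue ex-TRM replicate 2. Of the libraries used, circulating ex-Tcirc replicate 2 listed the fewest names. There the 5 highest members held 47.3% of the family's FPKM, against 21.3% to 27.4% in tissue.

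Zeros were most frequent in the library with the fewest names and were found in both subunits. The tissue libraries listed 5, 4, 3 and 3 of the 89 members at 0, the circulating ex-Tcirc pair 13 and 40, and the circulating ex-TRM library 6. The 40 zeros of circulating ex-Tcirc replicate 2 were 25 of 53 large (47.2%) and 15 of 36 small subunit genes (41.7%), and the 13 of replicate 1 were 7 and 6. Both replicates listed 12 members at 0, 28 were at 0 in replicate 2 alone and 1, Rps4l, in replicate 1 alone. Genes of proteins that every ribosome needs were among them. A 0 was not read as a silent gene, and its cause was not tested. Among names with a tissue mean of at least 20 FPKM, 7 of 73 members (9.59%) and 17.9% of other protein-coding names were at 0 in replicate 1. In replicate 2 it was 31 members (42.5%) and 54.3% of the others. The order was the other way in circulating ex-TRM replicate 2, with 2 members (2.74%) and 0.315% of the others. It was also the other way in tissue ex-Tcirc replicate 1, with 1 member (1.37%) and 0.105%. In all, 47 members were above 0 in all 7 libraries.

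By tissue level the shares ran differently, and no difference was tested. Among names with a tissue mean of at least 200 FPKM, circulating ex-Tcirc replicate 2 listed 4 of 12 members (33.3%) and 4 of 50 other protein-coding names (8.0%) at 0. The 4 were Rplp1, Rpl13a, Rps9 and Rps15, at 667, 450.5, 280.1 and 206 FPKM on average in tissue. At 100 to 200 FPKM the counts were 7 of 21 members and 38 of 123 other names, at 50 to 100 FPKM 16 of 30 and 162 of 357, and at 20 to 50 FPKM 4 of 10 and 830 of 1373. The bands hold few members, and transcript lengths, which set how many fragments a given FPKM stands for, were not analysed here.

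**Figure D4:**
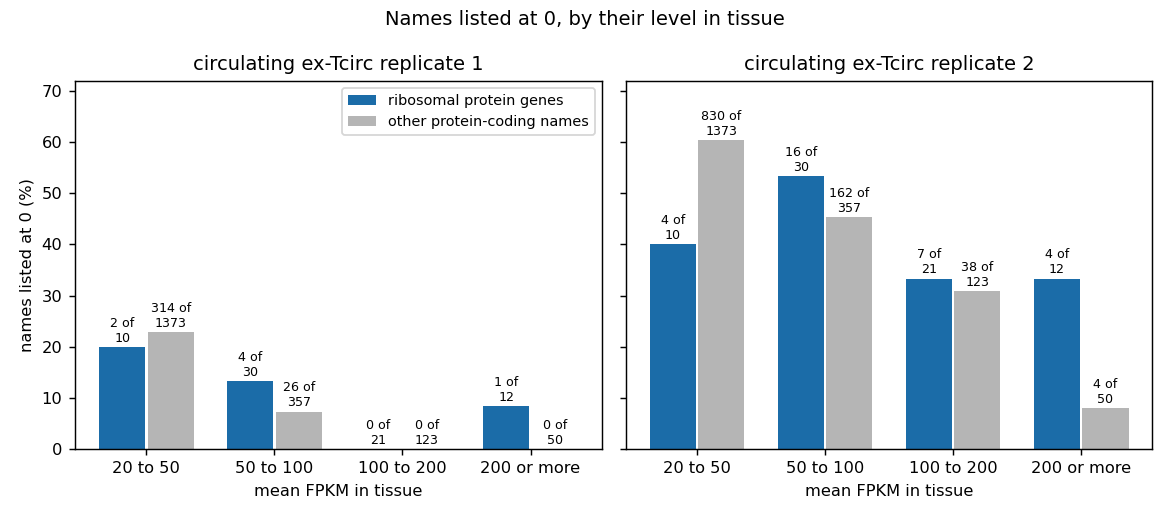
Share of names listed at 0, in percent, in circulating ex-Tcirc replicates 1 and 2, by mean FPKM in tissue; blue bars are ribosomal protein genes and grey bars other protein-coding names, with the counts above. In replicate 2 the share among other names falls from 830 of 1373 to 4 of 50 with rising level, while among the members it is 4 of 10 in the lowest and 4 of 12 in the highest band.

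Members that host a small nucleolar RNA were rarely at 0. Such RNAs guide modification of ribosomal RNA and are cut from introns of their host transcripts, many of which are ribosomal protein genes. By RefSeq coordinates, 30 of the 89 members had at least 1 snoRNA gene inside their span. Of the members with a tissue mean of at least 20 FPKM, circulating ex-Tcirc replicate 2 listed 3 of 26 hosts (11.5%) and 28 of 47 other members (59.6%) at 0. The gap was present at 20 to 100 FPKM (1 of 12 against 19 of 28) and at 100 FPKM or more (2 of 14 against 9 of 19). In replicate 1 the counts were 0 of 26 and 7 of 47. The median genomic span was alike, 3035 and 3068 bases. The 3 hosts at 0 were Rpl13a, which carries Snord32a, Snord33, Snord34 and Snord35a, together with Rpl32 and Rpl39. The 45 hosted snoRNA names were themselves often at 0: 1 to 3 in a tissue library, 16 and 35 in the circulating ex-Tcirc pair and 5 in the circulating ex-TRM library. Their summed levels were 6875 to 12922 FPKM per tissue library and 2555, 789 and 4731 in circulation. This split of the members was made with the zeros known, and whether reads from the snoRNA genes entered the host values was not tested.

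Processed pseudogenes of the family were above tissue more often than names of that level in general, in each of the 3 circulating libraries. The files list 319 such names, 74 of them with a tissue mean of at least 20 FPKM. Of these 74, 71 (95.9%) were above every tissue library in circulating ex-TRM replicate 2, and 63 (85.1%) and 33 (44.6%) in circulating ex-Tcirc replicates 1 and 2, against background shares of 37.6%, 31.7% and 17.6%. Their median ratios to the tissue mean were 1.60, 1.59 and 1.03. Unlike the members they were seldom at 0, with 3 of 74 (4.05%) in circulating ex-Tcirc replicate 2. The ratio of their summed FPKM to that of the members was 0.484 to 0.599 over tissue and 0.731, 1.12 and 0.588 in the circulating libraries. Over both origins limma called 2 of 89 pseudogene names higher in circulation and 0 higher in tissue, beside 0.791% and 6.55% of all 2656 names. The 2 were Rpl10a-ps1 (log2 difference -1.29, limma adjusted p = 0.0386) and Rpl28-ps1 (-1.18, limma adjusted p = 0.0415). Rps18-ps6, singled out after its values were seen, had 102.9 FPKM in 1 tissue library, ex-Tcirc replicate 1, was at 0 in the other 3, and had 180.4, 17.4 and 237 in circulation. Another copy of the same gene, Rps18-ps4, ran the other way. It was at 0 in tissue ex-Tcirc replicate 1, at 82.0, 64.2 and 71.1 FPKM in the other 3, and at 0, 0 and 3.32 in circulation. Pseudogenes share sequence with their parents, and how fragments that match both were assigned is not given in the sources used here. With copies added to each member, 68 of 73 members were above every tissue library in circulating ex-TRM replicate 2 (37.8% of all names), and the mean number of members at 0 in the 3 circulating libraries was 8.67 in place of 19.7.

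Other genes of translation were read for comparison, from lists drawn up for this purpose. Fau and Rack1, which lie outside the naming rule, had tissue levels within the range of the members. Fau, which encodes the small subunit protein fused to a ubiquitin-like protein, ranged from 140.3 to 224 FPKM over tissue and was at 219, 0 and 326 in circulation. For Rack1, a scaffold on the small subunit, the tissue range was 121 to 134 FPKM and the circulating values 142, 71.6 and 188. Both were above every tissue library in circulating ex-TRM replicate 2. Of 15 other TOP mRNAs with a tissue mean of at least 20 FPKM, 12 (80.0%) were above every tissue library in circulating ex-TRM replicate 2. In circulating ex-Tcirc replicates 1 and 2 the counts were 10 (66.7%) and 5 (33.3%). The median ratios in these 3 libraries were 1.40, 1.42 and 1.04. The last median hides a split, since 7 of the 15 (46.7%) were at 0 in circulating ex-Tcirc replicate 2, among them Npm1, Eif4b and Btf3. Of other protein-coding names, 54.3% were at 0 there. Tpt1, a TOP mRNA of high abundance, was at 807, 1042, 1155 and 1285 FPKM over the tissue libraries and at 1590.3, 1267 and 1383 in circulation. Eef2, which moves the ribosome along the mRNA, ranged from 269 to 415 FPKM over tissue and was at 543, 618 and 544 in circulation, with no overlap.

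In circulating ex-TRM replicate 2, translation factors and genes of ribosome assembly lay nearer to the background of 37.6% than the members did. Of 28 translation factors, some of them TOP mRNAs as well, 18 (64.3%) were above every tissue library there, with a median ratio of 1.26. Of 10 ribosome biogenesis genes 3 (30.0%) were, with 1.08. For translation factors this contrast was slight or absent in the circulating ex-Tcirc pair. Their share was 50% in replicate 1 (members 53.4%, background 31.7%) and 21.4% in replicate 2 (members 17.8%, background 17.6%). Of the biogenesis genes, 2 and 1 were above every tissue library in that pair. limma called 2 of 29 tested translation factors higher in tissue over both origins, beside 6.55% of all 2656 names, a share near the background. These were Eif3g (limma adjusted p = 0.0245) and Eif3i (limma adjusted p = 0.0415), and both stood at 0 in the circulating ex-Tcirc pair. No TOP mRNA outside the family, biogenesis gene or regulator of ribosomal protein mRNAs was called in that fit, of 14, 7 and 4 tested. It called 7.34% of all names, so lists this short could hold few calls. Mitochondrial ribosomal proteins could hardly be read, since only 3 of 78 names had a tissue mean of at least 20 FPKM, and 59 and 71 of the 78 were at 0 in circulating ex-Tcirc. The lists overlap in membership and share the same libraries, so they do not add independent counts.

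**Figure D5:**
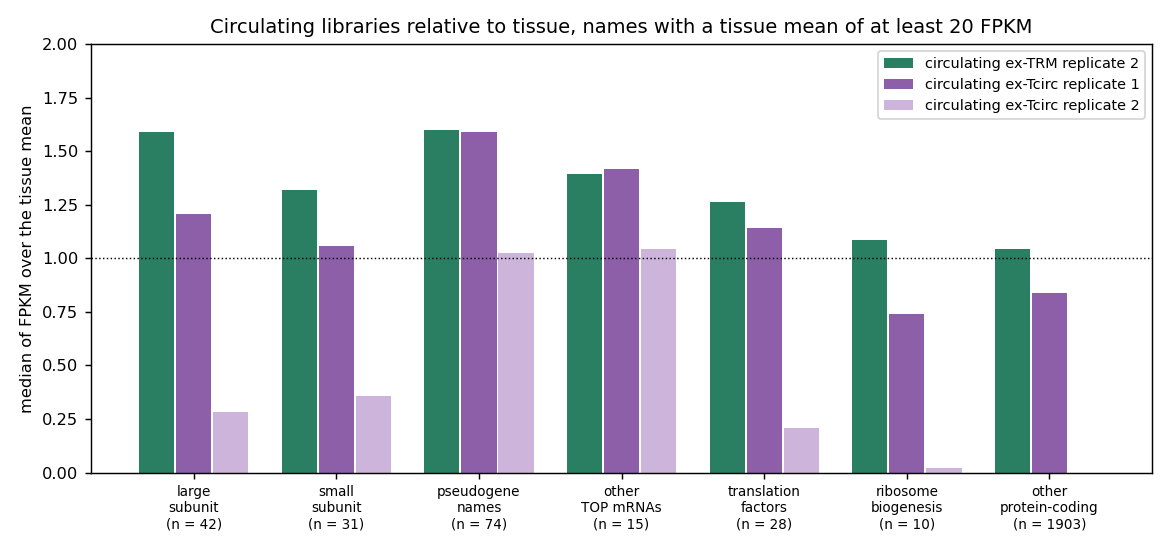
Median ratio of FPKM in each circulating library to the tissue mean, for names with a tissue mean of at least 20 FPKM, by gene list; colours stand for libraries and the dotted line marks a ratio of 1. In circulating ex-TRM replicate 2 the medians are 1.59 and 1.32 for large and small subunit genes, 1.60 for their pseudogene names, 1.40 for other TOP mRNAs and 1.04 for other protein-coding names.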

How the data were processed

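Of 22 samples in the series, the 8 RNA libraries were used; the ATAC-seq samples were not used here. Sorted cells, 3000 to 50000 per sample per the labels' protocols, gave strand-specific libraries read from both ends. What the authors deposited is FPKM per gene, as per the file headers. Their processing notes list HISAT2 2.2.1, StringTie 3.0.1, SAMtools 1.15 and Trim Galore 0.6.7 with the build mm10, but no role for any tool. How strand and fragments with several matches were handled is not given in the sources used here.

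FPKM were summed per name; 38990 of 55291 names (70.5%) matched RefSeq by symbol, all members among them. limma 3.58.1 (R 4.3.3) was fitted with an intensity trend to group means of log2(FPKM + 1), over 7 libraries or, within tissue, over 4. Names with a mean of at least 20 FPKM over those libraries were tested, with Benjamini-Hochberg adjustment over all of them and a threshold of 0.05. Log2 differences understate changes of low genes. Tables were handled with pandas 2.3.3 in Python 3.11.15, and the fits were tested on simulated data. Depth could not be worked out from the values, so no counting interval is given.

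Members, gene lists, the filter and the missing library were chosen with earlier results of these data known. Named members were the 10 highest and lowest of those called, or the 5 smallest p per direction where fewer than 5 passed, the 5 highest and lowest by mean, members with contradictory zeros and 26 fixed names. Others, given as examples, were named after their values were seen. Alternatives are listed in the closing section. A few values that the rule for named members would include are not reported here.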

Additional observations from a re-analysis of the deposited data

Results flagged for a closer look

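Rps15 was singled out because its location difference depended on origin, by the test of the interaction: -8.33 ± 0.44 on the log2(FPKM + 1) scale (SE; limma adjusted p = 0.0323). The size reflects values of 0 in both circulating ex-Tcirc libraries against 255 FPKM in circulating ex-TRM replicate 2 and is no fold. The gene's own spread came from the tissue libraries alone. The SE and p therefore do not measure how it varies between circulating libraries.

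In circulating ex-TRM replicate 1, treated as missing, Rpl37 was at 18170.4 FPKM and Rpl22l1 at 1691 FPKM. Each lies above the highest value of that gene in the other 7 libraries, 155 and 68.4 FPKM. In the same library 85 of 89 members were at 0, and the other members above 0 were Rps3a2 and Rps3a3, at 1.66 FPKM each.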

How the results depend on the processing

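The 5 calls for tissue against circulation were 9 with a filter of 1 FPKM or more in 2 or more libraries and with no filter, 3 with TPM, and 0 with genes above 0 in every library, library weights, all 8 libraries or location as the only term. Leaving out libraries gave 0 to 45. The 5 calls within ex-Tcirc were 10 with that looser filter, 8 with no filter, and 0 with genes above 0 in every library, library weights, all 8 libraries or only the 2 groups compared, and 0 to 47 with 1 library left out. The 0 calls within ex-TRM were 1 with no filter, 2 with library weights and 6 with only the 2 groups compared, and 0 to 1 with 1 library left out. The 0 calls between ex-TRM and ex-Tcirc in tissue were 1 with median-of-ratios factors and 0 to 7 with 1 library left out. The 1 interaction call was 5 with a pseudocount of 0.1, 8 with either looser filter, 0 with genes above 0 in every library, median-of-ratios factors, library weights or all 8 libraries, and 0 to 46 with 1 library left out. The highest of these counts, 45, 47, 1, 7 and 46, stood beside 69.5%, 73.5%, 2.16%, 15.1% and 63.6% of all names called in the same fits. The cause was not tested. Without circulating ex-TRM replicate 2 the averaged, within ex-TRM and interaction contrasts could not be fitted.

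The replicate number as a block gave 0 calls for tissue against circulation, 5 within ex-Tcirc, 0 within ex-TRM, 0 in tissue and 0 for the interaction. Deviations of same-numbered libraries correlated at 0.0074, -0.094 and -0.040 over 2656 names, between the groups with both libraries in use. No deviation shared by number was thus seen. With so few libraries, some of them sparse, this cannot tell whether same-numbered libraries came from the same animals or batch.

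Medians over all names moved with the scaling: for tissue against circulation they were 0.43 as reported, 0.63 with median-of-ratios factors, 0.06 with TPM and 0.11 when scaled to other protein-coding names, beside 0.13, 0.32, -0.15 and -0.09 for the members. With all 8 libraries, the sign turned for Rpl34 (1.33), Rpl35 (0.57), Rpl41 (1.48), Rplp0 (0.80) and Rplp2 (1.35) in tissue against circulation, and for Rpl27a (2.91), Rpl34 (3.63), Rpl35 (2.54), Rpl41 (2.93) and Rplp2 (3.91) within ex-TRM. With 1 library left out, Rpl7a within ex-TRM ranged from -0.00449 (without tissue ex-TRM replicate 1) to 0.38, and the Rpl23 interaction from -0.0354 (without circulating ex-Tcirc replicate 1) to 1.01.

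The large to small subunit ratio in tissue of 1.64 became 1.45 with pseudogene names and 1.33 without the stalk genes, and in circulation 2.01 became 1.51 and 1.49. The alternatives for the following counts, and the removal of the stalk genes, were chosen after seeing the data. The 62 members above tissue in circulating ex-TRM replicate 2 were 39 with median-of-ratios factors, 61 with TPM, 48 scaled to other protein-coding names and 62 to 64 without 1 tissue library. The 9 members above tissue in all 3 circulating libraries were 5 with median-of-ratios factors, 15 with TPM, 16 scaled to other protein-coding names, 17 with pseudogene names and 9 to 35 with 1 library left out. Of the single-member values, 698 kept direction and side of the threshold, 86 lost a call and 49 gained one. A group of 2 libraries, some listing few names, limits what could be called.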
